A study of Mus musculus with 12 samples.

Results

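The genes described here make cholesterol and fatty acids or control that synthesis through the SREBP transcription factors. They are 36 named genes of the 24537 in the table of expression values, found by symbol: 18 enzymes of sterol synthesis, 12 enzymes of fatty acid synthesis, elongation and desaturation, and 6 regulators. The rule uses gene symbols and no measured value, but the members were chosen with earlier results of these data known. All 36 were found, and all 36 passed the filter on low values (1 FPKM or more in 3 or more of the 12 libraries), as did 12364 genes in all.

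RNA was sequenced from 12 cultures of primary mouse cells, 3 in each of 4 groups, and the labels number the cultures of each group mouse 1 to 3 and give 3 animals in all. ADSCs are stromal cells from subcutaneous adipose tissue that carry the surface receptor Pdgfra. In vitro iSEPs (induced stratified epithelial progenitor cells) are epithelial cells made from such ADSCs in the dish, and in vivo iSEPs were cultured out of epithelium that arose from Pdgfra-positive ADSCs inside an animal. Keratinocytes came from back skin. Every group, controls included, has the strain label Pdgfra-creERxLSL-tdTomato, in which the Pdgfra promoter drives an inducible Cre and a red reporter lies behind a stop that Cre removes. How the conversion was done, and the age of the animals, are not given in the sources used here. ADSCs grew in DMEM with 10% fetal bovine serum, and the other 3 groups in a serum-free keratinocyte medium. Serum and cell type therefore change together in all 3 comparisons with ADSCs and cannot be told apart there. The 9 serum-free libraries (both iSEP groups and the keratinocytes) can be compared with each other without a difference in serum.

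Cells build cholesterol from acetyl-CoA through mevalonate, squalene and lanosterol, and fatty acids from the same acetyl-CoA through malonyl-CoA, followed by elongases and desaturases. When sterols in the endoplasmic reticulum fall, Scap escorts the SREBP precursors encoded by Srebf1 and Srebf2 to the Golgi, where they are cut and released, and when sterols are plentiful the Insig proteins hold Scap back. Epidermal cells use both products for the lipid barrier of skin, which also needs very long fatty acids bound into ceramides.

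Values are FPKM (read fragments scaled by transcript length and library size), which can be compared between genes because they are set per length. The libraries held an estimated 20950000 to 27690000 reads in listed genes. A gene is called when limma's adjusted p (Benjamini-Hochberg over all genes kept, two-sided) is below 0.05. Differences are in log2(FPKM + 1) with their standard error, which understates changes of low genes, and folds are ratios of mean FPKM. The labels were checked against marker genes: the 8 keratinocyte markers had sums of 12.7 to 14.0 FPKM in the ADSC libraries and of 10820 to 24040 elsewhere, and the 8 stromal markers of 8279 to 10570 in the ADSC libraries and of 29.9 to 324.0 elsewhere. Adipoq, Plin1 and Cfd, which define mature fat cells, were listed at 0 in every library, and of 7 adipocyte markers Fabp4 and Pparg were the 2 with a mean of at least 1 FPKM in ADSCs. In these bulk samples, fewer cells of a type and less RNA per cell cannot be told apart.

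The sterol and fatty acid arms differed in their make-up of calls against ADSCs. In keratinocytes 12 of the 18 sterol enzymes were called higher and 0 lower, where 32.8% of all genes tested were called higher, 20.7% lower and 53.5% in either direction. In vitro iSEPs had 7 of 18 called higher and 0 lower (all genes 32.1%, 21.7% and 53.8%). In vivo iSEPs had 5 of 18 higher and 0 lower (all genes 27.6%, 20.0% and 47.6%). The shares called higher were thus 66.7%, 38.9% and 27.8%, of which the last 2 lie near the background. With 1 library left out, 6 to 9 of the 18 were called in keratinocytes in place of 12. The shares of all genes in those fits are not given here. The median difference of the 18 enzymes was 0.85 in keratinocytes, 0.60 in the in vitro iSEPs and 0.50 in the in vivo iSEPs, while the median over all genes was 0.18, 0.15 and 0.14 in that order. These 3 comparisons share the same ADSC libraries.

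The separation of single libraries was counted in the same 3 comparisons. In in vitro iSEPs, 21 of the 36 members had all 3 libraries above all 3 ADSC libraries and 4 had them all below, where 63.7% of all genes were separated in this way (37.7% above and 26.1% below). In in vivo iSEPs 10 were above and 4 below, where 54.2% of all genes were separated (32.0% and 22.2%). In keratinocytes 26 were above and 5 below, where 69.5% of all genes were separated (43.6% and 25.9%). Among the 18 sterol enzymes 14, 5 and 16 were separated upwards in these groups in turn, and 0 downwards. The 5 of 18 in the in vivo iSEPs lie near the share of all genes separated upwards. Among the 12 fatty acid enzymes 3, 2 and 5 were separated upwards and 3, 3 and 4 downwards.

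The 12 fatty acid enzymes were called in both directions. Against ADSCs, 3 were higher and 3 lower in the in vitro iSEPs, 1 higher and 3 lower in the in vivo iSEPs, and 3 higher and 3 lower in keratinocytes. The shares were 25.0%, 8.33% and 25.0% higher and 25.0% lower in each, where all genes had 32.1%, 27.6% and 32.8% higher and 21.7%, 20.0% and 20.7% lower, so all but the in vivo share called higher lie near the background. Their median differences were -0.01, 0.09 and 0.12, below the median of all genes in each comparison. Of the 6 regulators, 3 were called higher and 1 lower in the in vitro iSEPs (50% higher, all genes 32.1%), 3 and 1 in the in vivo iSEPs (50%, all genes 27.6%), and 4 and 1 in keratinocytes (66.7%, all genes 32.8%). Without ADSC mouse 2 the in vivo count was 2 higher and 0 lower, and with median scaling the keratinocyte count was 2 higher and 1 lower. Insig1 was the regulator called lower in each.

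With the libraries scaled to a common median, the share of called genes that were higher went from 59.7% to 47.3% in the in vitro iSEPs, from 57.9% to 48.1% in the in vivo iSEPs and from 61.4% to 46.8% in keratinocytes. The number of sterol enzymes called higher in keratinocytes was then 7 in place of 12. Over all genes, 6115 of 12364 were then called there in either direction, of which 46.8% were higher. In the main fit 6616 were called, of which 61.4% were higher.

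**Figure D1:**
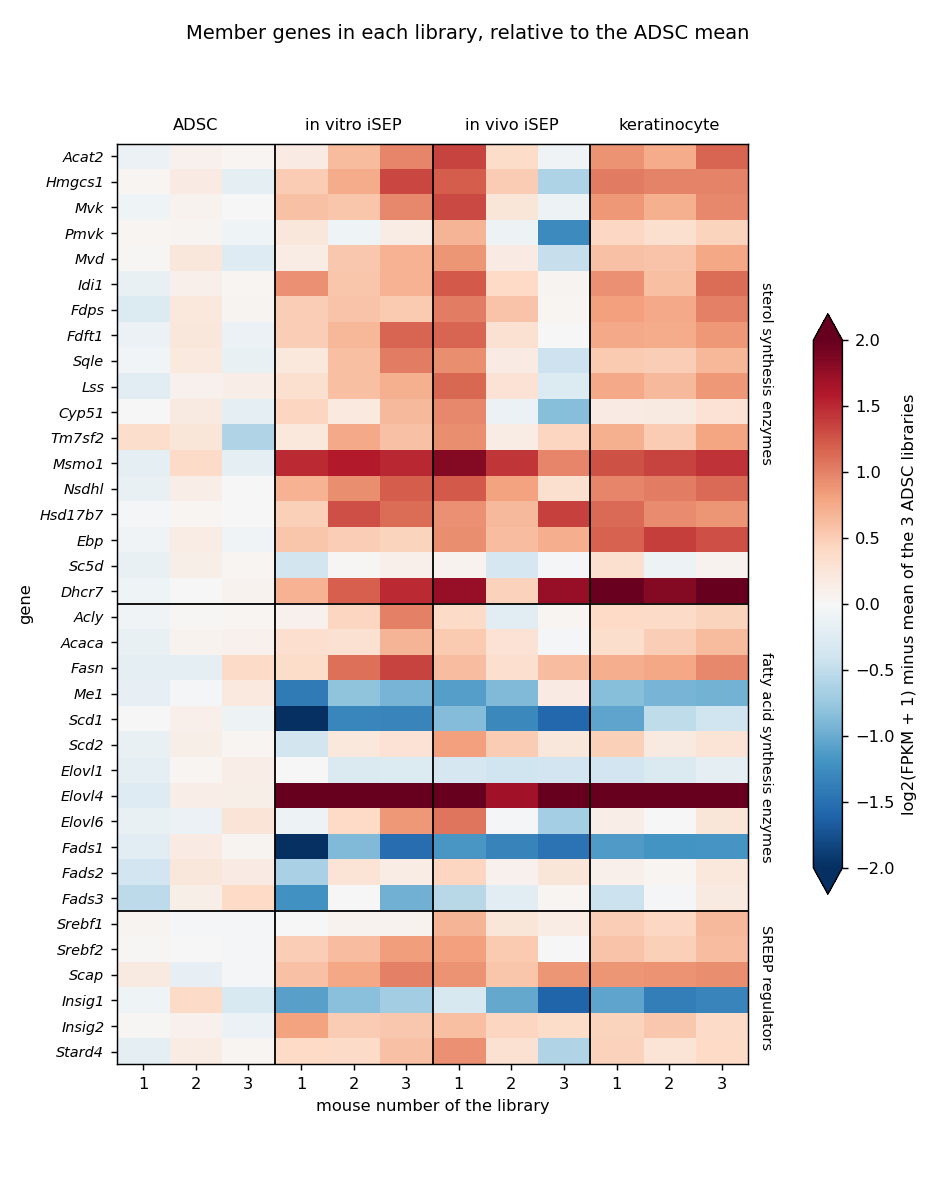
Each row is 1 gene and each column 1 library, with the colour giving log2(FPKM + 1) minus the mean of the 3 ADSC libraries on a scale that ends at -2 and 2 (values of Elovl4, Fads1 and Dhcr7 beyond an end take its colour). The sterol rows are mostly red outside ADSCs and palest in the in vivo iSEP library of mouse 3, while the fatty acid rows hold red and blue side by side.

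Sequence upstream of the members was examined, although only the sterol enzymes had all their calls against ADSCs in 1 direction. RefSeq promoter windows on GRCm38.p6 (250 bases before to 50 after the start) were matched by symbol for 29 of the 36 members, in 39 windows. The windows were searched on both strands for the core sterol regulatory element TCACNCCAC, the NF-Y box CCAAT and the Sp1 box GGGCGG, the NF-Y and Sp1 proteins being known partners of SREBPs. In the members' windows 1 pair of matches to different motifs overlapped, and matches of 1 motif that share a base, such as the Sp1 boxes of Elovl4, were counted separately. Of the 15 sterol enzymes with a window, 14 held the NF-Y box (93.3%) and 14 the Sp1 box (93.3%), against 42.9% and 70.1% of the 9321 tested genes with a window. The 9 fatty acid enzymes held the NF-Y box in 6 cases and the Sp1 box in 6, and the 5 regulators in 4 and 5. A match is a run of letters and not a shown binding site. The core element occurred in 1 member, Hmgcs1, as TCACCCCAC starting 137 bases before the start site on the gene's own strand. It occurred in 1.44% of the tested genes. Below are Hmgcs1, which holds the core element; Msmo1 and Nsdhl, called higher in each comparison with ADSCs; Insig1, the regulator called lower; and Elovl4, the member with the largest fold. They read 5′ to 3′ along the gene with matches of the 3 motifs, on either strand, in capitals.
Hmgcs1 (chr13:119690101-119690400, strand plus): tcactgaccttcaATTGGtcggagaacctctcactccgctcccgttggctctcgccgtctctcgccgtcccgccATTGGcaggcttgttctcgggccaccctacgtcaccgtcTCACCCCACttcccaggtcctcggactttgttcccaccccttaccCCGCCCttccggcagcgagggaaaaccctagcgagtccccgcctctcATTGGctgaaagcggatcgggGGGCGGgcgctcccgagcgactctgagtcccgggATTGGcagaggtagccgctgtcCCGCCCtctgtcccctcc
Msmo1 (chr8:64733529-64733828, strand minus): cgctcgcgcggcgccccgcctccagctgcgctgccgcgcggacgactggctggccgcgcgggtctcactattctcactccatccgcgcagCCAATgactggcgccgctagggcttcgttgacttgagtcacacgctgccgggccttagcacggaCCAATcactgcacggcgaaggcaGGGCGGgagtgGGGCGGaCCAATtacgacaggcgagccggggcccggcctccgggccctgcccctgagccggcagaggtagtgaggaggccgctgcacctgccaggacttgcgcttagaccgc
Nsdhl (chrX:72918271-72918570, strand plus): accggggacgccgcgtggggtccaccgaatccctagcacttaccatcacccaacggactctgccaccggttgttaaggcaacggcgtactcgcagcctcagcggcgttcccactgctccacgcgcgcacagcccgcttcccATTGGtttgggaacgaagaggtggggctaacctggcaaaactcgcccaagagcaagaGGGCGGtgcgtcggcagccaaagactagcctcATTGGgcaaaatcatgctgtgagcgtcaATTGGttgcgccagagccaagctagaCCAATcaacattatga
Insig1 (chr5:28071162-28071461, strand plus): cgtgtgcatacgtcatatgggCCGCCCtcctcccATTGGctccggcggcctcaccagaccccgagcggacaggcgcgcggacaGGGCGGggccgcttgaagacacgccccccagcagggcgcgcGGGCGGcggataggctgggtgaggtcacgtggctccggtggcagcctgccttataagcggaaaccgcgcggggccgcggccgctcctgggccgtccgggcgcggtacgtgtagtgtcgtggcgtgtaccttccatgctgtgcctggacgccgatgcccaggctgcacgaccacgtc
Elovl4 (chr9:83806256-83806555, strand minus): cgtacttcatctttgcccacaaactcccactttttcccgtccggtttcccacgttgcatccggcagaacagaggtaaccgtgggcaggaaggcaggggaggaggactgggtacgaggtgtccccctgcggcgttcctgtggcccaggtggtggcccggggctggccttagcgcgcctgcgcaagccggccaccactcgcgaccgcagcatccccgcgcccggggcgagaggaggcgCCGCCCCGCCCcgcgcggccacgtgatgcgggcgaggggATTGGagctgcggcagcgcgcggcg
The windows of Msmo1 and Nsdhl each hold several NF-Y boxes (3 and 4), that of Hmgcs1 holds 4, and those of Insig1 and Elovl4 hold 1 each. Members not shown differ from one another. Among sterol enzymes, Mvk holds 5 and Hsd17b7 3, while Acat2 holds 0 and the windows of Dhcr7 hold 0, 0 and 2. Outside the sterol arm, Fasn holds 3 and 1 window of Insig2 holds 3.

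The sterol pathway begins with enzymes that carry acetyl-CoA to squalene and lanosterol. Of the 10 members up to lanosterol, 2 were called higher than in ADSCs in the in vitro iSEPs, 0 in the in vivo iSEPs and 7 in keratinocytes, where all genes had 32.1%, 27.6% and 32.8%. Of the 8 members after lanosterol, 5 were called higher in each of the 3 comparisons. This division of the pathway was made after the values were seen and was not tested.

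Acat2, which joins acetyl-CoA units to acetoacetyl-CoA, was measured at 11.997, 13.9 and 13.5 FPKM in the ADSC libraries, 14.8, 20.9 and 26.7 in the in vitro iSEP libraries, 35.2, 17.1 and 12.4 in those of in vivo iSEPs and 25.2, 22.5 and 30.5 in those of keratinocytes (mice 1, 2 and 3 in each group, here and below). The keratinocyte libraries and the in vitro iSEP libraries lay above all 3 ADSC libraries, and the in vivo iSEP libraries overlapped them. Its mean was 1.99-fold higher in keratinocytes than in ADSCs (log2 difference 0.93 ± 0.31, adjusted p = 0.0274). Acat2 has a near copy, Acat3, with which it may share reads, so its level is uncertain. Hmgcs1, the synthase that makes HMG-CoA, stood at 63.0, 68.8 and 53.4 FPKM in the ADSC libraries, 87.5, 103 and 157 in the in vitro iSEP libraries, 144, 88.2 and 39.6 in those of in vivo iSEPs and 127, 123 and 123 in those of keratinocytes. Keratinocytes were tightly grouped at 124 ± 2.20 FPKM (SD, n = 3), 2.02-fold above ADSCs at 61.7 ± 7.80 (log2 difference 1.01 ± 0.37, adjusted p = 0.0393). In vivo iSEPs ranged from below to above the ADSC libraries. Mvk (mevalonate kinase) had 17.0, 19.1 and 18.1 FPKM in the ADSC libraries, 27.5, 27.0 and 36.2 in the in vitro iSEP libraries, 46.7, 21.4 and 16.8 in those of in vivo iSEPs and 33.5, 30.1 and 35.9 in those of keratinocytes. It was 1.84-fold higher in keratinocytes (log2 difference 0.84 ± 0.29, adjusted p = 0.0289), with no overlap between the libraries. In vitro iSEPs, also without overlap, had adjusted p = 0.0591 for Mvk and 0.0708 for Hmgcs1.

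Fdps, which makes farnesyl diphosphate, was at 27.4, 38.8 and 34.6 FPKM in the ADSC libraries, 47.2, 49.6 and 48.0 in the in vitro iSEP libraries, 68.3, 49.8 and 34.2 in those of in vivo iSEPs and 59.2, 56.8 and 68.0 in those of keratinocytes. The means rose from 33.6 ± 5.76 FPKM in ADSCs to 61.3 ± 5.89 in keratinocytes (log2 difference 0.86 ± 0.21, adjusted p = 0.00531), and the keratinocyte libraries all lay above the ADSC ones. In GENCODE M21, 77.4% of the exon bases of Fdps lie in exons of the same-strand gene model Gm43738, so some of its reads could belong to either. Fdft1 (squalene synthase) gave 12.7, 16.4 and 12.8 FPKM in the ADSC libraries, 19.9, 22.6 and 32.5 in the in vitro iSEP libraries, 32.3, 17.5 and 13.8 in those of in vivo iSEPs and 24.1, 23.9 and 26.2 in those of keratinocytes. It was called higher in the in vitro iSEPs (1.79-fold, log2 difference 0.78 ± 0.27, adjusted p = 0.0295) and in keratinocytes (1.77-fold, log2 difference 0.79 ± 0.27, adjusted p = 0.0278), and in both the libraries stood clear of ADSCs. Exons of Ctsb on the other strand cover 20.9% of its exon bases. Lss, the cyclase that forms lanosterol, had 8.78, 11.1 and 11.5 FPKM in the ADSC libraries, 13.3, 16.3 and 17.7 in the in vitro iSEP libraries, 24.2, 12.9 and 8.45 in those of in vivo iSEPs and 18.2, 16.8 and 19.8 in those of keratinocytes. Only its difference between keratinocytes and ADSCs was called among the 3 against ADSCs (1.75-fold, log2 difference 0.76 ± 0.28, adjusted p = 0.0411). Idi1, which isomerises isopentenyl diphosphate, was low everywhere, with group means of 0.632 ± 0.144 FPKM in ADSCs, 1.71 ± 0.351 in the in vitro iSEPs, 1.54 ± 1.105 in the in vivo iSEPs and 2.02 ± 0.524 in keratinocytes. It was called higher in the in vitro iSEPs (log2 difference 0.73 ± 0.26, adjusted p = 0.0361) and keratinocytes (log2 difference 0.88 ± 0.26, adjusted p = 0.0155), and it may share reads with its near copy Idi2.

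Several of these calls lay close to the threshold and were lost with 1 library fewer, while the differences kept their direction. The main fit shares its spread over the 4 groups. The median SD of the sterol enzymes was 0.638 in in vivo iSEPs, 0.105 in keratinocytes and 0.159 in ADSCs. With array weights or the 2 groups alone, the keratinocyte calls of Acat2, Hmgcs1, Mvk, Fdft1 and Lss were kept. The lowest adjusted p of limma among the alternatives was 0.000111 for Hmgcs1 and 0.000347 for Lss. The log2 difference between keratinocytes and ADSCs stayed between 0.91 and 1.09 for Hmgcs1, 0.65 and 0.82 for Lss, 0.78 and 0.91 for Mvk, and 0.82 and 1.03 for Acat2 with any 1 library left out. In keratinocytes, Hmgcs1 and Lss were not called when any 1 of the 6 libraries was left out (adjusted p 0.0649 to 0.11 and 0.0642 to 0.125), nor with the mouse number as a block (adjusted p = 0.0549 and 0.0643). Acat2 and Mvk lost the call without any 1 ADSC library and without keratinocyte mouse 1 or 3 (adjusted p 0.0555 to 0.0909 and 0.0572 to 0.0826). Fdft1 lost it without ADSC mouse 1 or 3 or any 1 keratinocyte library (adjusted p 0.0574 to 0.0798), and Idi1 without keratinocyte mouse 3 (adjusted p = 0.0629). In in vitro iSEPs, Fdft1 lost it without ADSC mouse 1 or 3 or in vitro mouse 3 (adjusted p 0.0836 to 0.117), and Idi1 without any 1 ADSC library or in vitro mouse 1 or 3 (adjusted p 0.0609 to 0.105). Scaled to a common median, the keratinocyte calls of Acat2, Hmgcs1, Mvk, Fdft1 and Lss were lost (adjusted p 0.0581 to 0.0999), as were the in vitro calls of Fdft1 (0.061) and Idi1 (0.0763). Fdps kept its keratinocyte call under every alternative tried.

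Msmo1, the oxidase that removes methyl groups at carbon C4, was the most abundant sterol enzyme in every group mean. It was measured at 74.0, 111 and 74.6 FPKM in the ADSC libraries, 240.2, 256 and 242 in the in vitro iSEP libraries, 305, 231 and 168 in those of in vivo iSEPs and 208, 219 and 234 in those of keratinocytes. All 9 serum-free libraries lay above all 3 ADSC libraries. The mean was 2.85-fold higher in the in vitro iSEPs (log2 difference 1.52 ± 0.21, adjusted p = 0.000105), 2.71-fold in the in vivo iSEPs (log2 difference 1.41 ± 0.21, adjusted p = 0.000206) and 2.54-fold in keratinocytes (log2 difference 1.36 ± 0.21, adjusted p = 0.000241). Nsdhl, the dehydrogenase that acts with Msmo1 in the same demethylation, had 22.5, 27.7 and 25.2 FPKM in the ADSC libraries, 41.3, 48.6 and 59.2 in the in vitro iSEP libraries, 59.7, 44.3 and 31.6 in those of in vivo iSEPs and 50.3, 52.1 and 56.3 in those of keratinocytes. Again no serum-free library fell to the ADSC level. Its folds over ADSCs were 1.98 in the in vitro iSEPs (adjusted p = 0.00231), 1.80 in the in vivo iSEPs (0.0083) and 2.10 in keratinocytes (0.00122). Hsd17b7, the ketoreductase of that step, stood at 16.5, 17.6 and 17.1 FPKM in the ADSC libraries, 24.2, 43.0 and 38.4 in the in vitro iSEP libraries, 33.1, 27.2 and 45.4 in those of in vivo iSEPs and 38.6, 33.9 and 32.2 in those of keratinocytes. The 3 serum-free groups had nearly equal means, 35.2 ± 9.77, 35.2 ± 9.32 and 34.9 ± 3.31 FPKM, against 17.1 ± 0.555 in ADSCs (adjusted p = 0.00294, 0.00311 and 0.00259 in that order).

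Ebp, the isomerase that moves the ring double bond, gave 17.7, 20.7 and 17.7 FPKM in the ADSC libraries, 27.8, 26.7 and 25.7 in the in vitro iSEP libraries, 36.7, 29.1 and 31.7 in those of in vivo iSEPs and 43.7, 50.2 and 47.3 in those of keratinocytes. The groups formed a ladder from ADSCs (18.7 ± 1.74) through in vitro iSEPs (26.8 ± 1.05) and in vivo iSEPs (32.5 ± 3.88) to keratinocytes (47.0 ± 3.26), with no overlap between neighbours. Each serum-free group was above ADSCs, with log2 differences of 0.49 ± 0.11 (adjusted p = 0.00299), 0.76 ± 0.11 (0.00018) and 1.29 ± 0.11 (2.63e-06). Both iSEP groups were below keratinocytes, with log2 differences of -0.79 for in vitro iSEPs (adjusted p = 0.00199) and -0.53 for in vivo iSEPs (0.0166), while the 2 iSEP groups did not pass the test against each other (0.291). The last of these calls against keratinocytes was lost without in vivo mouse 2 or keratinocyte mouse 2 or 3 (adjusted p 0.0684 to 0.0882). Dhcr7, the reductase of the final step to cholesterol, was at 7.42, 7.96 and 8.37 FPKM in the ADSC libraries, 13.4, 19.4 and 23.9 in the in vitro iSEP libraries, 28.7, 11.2 and 28.9 in those of in vivo iSEPs and 34.0, 30.9 and 34.7 in those of keratinocytes. All serum-free libraries exceeded ADSCs, the in vivo library of mouse 2 by the least. Keratinocytes had the largest fold of any sterol enzyme, 4.19 (log2 difference 1.94 ± 0.31, adjusted p = 0.000292), next to 2.90 in the in vivo iSEPs (adjusted p = 0.00441) and 2.39 in the in vitro iSEPs (adjusted p = 0.00944). The calls of Msmo1, Nsdhl, Hsd17b7, Ebp and Dhcr7 against ADSCs held under every alternative tried.

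The other sterol enzymes were called in none of the 6 comparisons of the main fit. In keratinocytes against ADSCs, Pmvk, Mvd, Sqle and Tm7sf2 were called higher with array weights and with the 2 groups alone. Their lowest adjusted p among the alternatives was 0.00646, 0.00422, 0.00361 and 0.0212 in turn. Cyp51 and Sc5d were called under no alternative there. Sqle (squalene epoxidase) had means from 45.3 ± 5.66 FPKM in ADSCs to 71.3 ± 20.1 in the in vitro iSEPs, Cyp51 (lanosterol demethylase) from 52.4 ± 6.74 in ADSCs to 70.7 ± 11.1 in the in vitro iSEPs, and Mvd (mevalonate diphosphate decarboxylase) from 17.8 ± 3.14 in ADSCs to 28.0 ± 2.29 in keratinocytes. Pmvk (phosphomevalonate kinase) ranged from 16.9 ± 10.8 in the in vivo iSEPs to 22.9 ± 1.07 in keratinocytes, and Tm7sf2, a sterol reductase, from 3.57 ± 1.46 in ADSCs to 6.01 ± 0.678 in keratinocytes. Sc5d, the C5 desaturase that acts next to Ebp and Dhcr7, had the smallest ratio of highest to lowest group mean of the 36 members (1.15), from 40.8 ± 5.93 in the in vivo iSEPs to 47.0 ± 6.98 in keratinocytes.

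**Figure D2:**
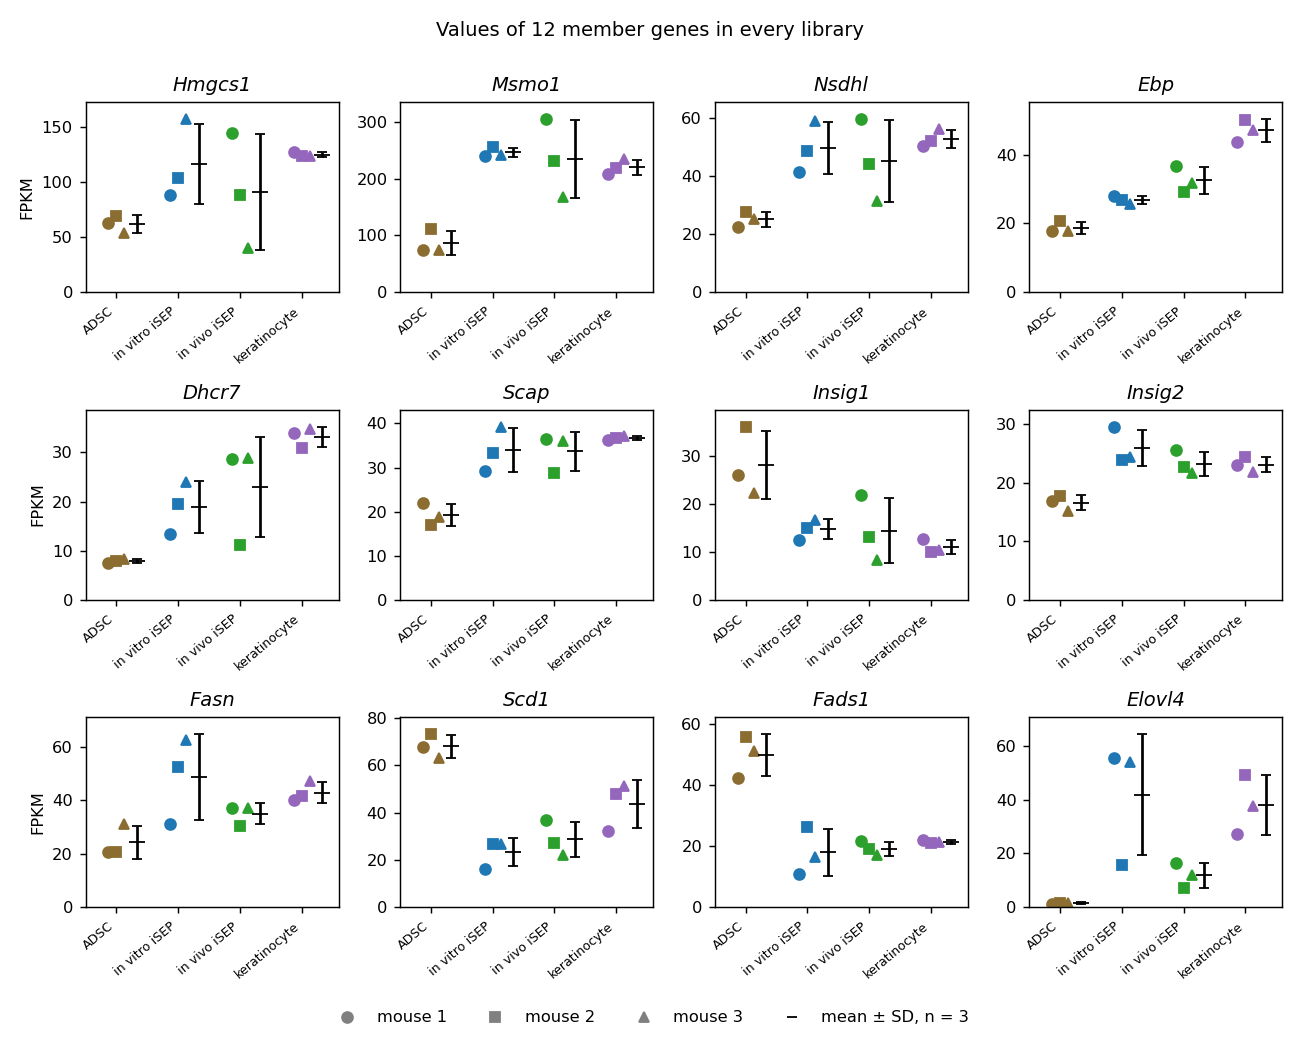
FPKM of 12 members in each library (symbols give the mouse), with the mean ± SD of the 3 libraries in black beside them; every y axis starts at 0. Msmo1, Nsdhl, Ebp, Dhcr7, Scap, Insig2 and Elovl4 have no serum-free library at the ADSC level, Insig1, Scd1 and Fads1 have all 9 below it, and the in vivo iSEP points of Hmgcs1 run from below to above ADSCs.

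Among the regulators, Scap and Insig2 were called higher than in ADSCs in each comparison and Insig1 lower. Scap, the escort, was measured at 21.9, 16.9 and 18.9 FPKM in the ADSC libraries, 29.3, 33.2 and 39.2 in the in vitro iSEP libraries, 36.4, 28.6 and 36.1 in those of in vivo iSEPs and 36.2, 36.7 and 37.2 in those of keratinocytes. Every serum-free library was above every ADSC library. It was 1.77-fold higher in the in vitro iSEPs (log2 difference 0.79 ± 0.14, adjusted p = 0.000596), 1.76-fold in the in vivo iSEPs (log2 difference 0.78 ± 0.14, adjusted p = 0.000713) and 1.91-fold in keratinocytes (log2 difference 0.91 ± 0.14, adjusted p = 0.000214). Exons of 5830462I19Rik on the other strand cover 18.6% of the exon bases of Scap. Srebf2, which encodes the SREBP known mainly for sterol genes, had 38.8, 38.4 and 36.8 FPKM in the ADSC libraries, 53.8, 59.0 and 68.4 in the in vitro iSEP libraries, 67.5, 54.9 and 37.8 in those of in vivo iSEPs and 56.7, 53.1 and 58.5 in those of keratinocytes. It was called higher in the in vitro iSEPs (log2 difference 0.65 ± 0.18, adjusted p = 0.00921) and keratinocytes (log2 difference 0.55 ± 0.18, adjusted p = 0.0214). In vivo iSEPs had adjusted p = 0.0589, with the library of mouse 3 at the ADSC level. Srebf1, which encodes the SREBP known mainly for fatty acid genes, stood at 19.5, 18.5 and 18.3 FPKM in the ADSC libraries, 18.7, 19.7 and 19.6 in the in vitro iSEP libraries, 30.7, 22.4 and 20.9 in those of in vivo iSEPs and 26.8, 25.3 and 30.0 in those of keratinocytes. The in vitro iSEP libraries stayed at the ADSC level (mean 19.4 ± 0.570 against 18.8 ± 0.639), and the in vivo iSEP and keratinocyte libraries lay above it. It was called higher in the in vivo iSEPs (log2 difference 0.36 ± 0.13, adjusted p = 0.0457) and keratinocytes (log2 difference 0.52 ± 0.13, adjusted p = 0.00706), and in vitro iSEPs were below keratinocytes (log2 difference -0.48 ± 0.13, adjusted p = 0.0434).

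The 2 Insig genes, whose products both retain Scap, went opposite ways. Insig1 was at 26.0, 36.1 and 22.2 FPKM in the ADSC libraries, 12.5, 14.9 and 16.7 in the in vitro iSEP libraries, 21.8, 13.032 and 8.36 in those of in vivo iSEPs and 12.7, 9.99 and 10.4 in those of keratinocytes. All 9 serum-free libraries lay below all 3 ADSC libraries, the in vivo library of mouse 1 by the least. The mean fell by 0.87 on the log2 scale in the in vitro iSEPs (SE 0.28, adjusted p = 0.0226), by 0.98 in the in vivo iSEPs (adjusted p = 0.0139) and by 1.25 in keratinocytes (adjusted p = 0.00319). Insig2 had 16.8, 17.7 and 15.2 FPKM in the ADSC libraries, 29.5, 23.9 and 24.4 in the in vitro iSEP libraries, 25.5, 22.6 and 21.6 in those of in vivo iSEPs and 23.0, 24.4 and 21.9 in those of keratinocytes. Here every serum-free library was above ADSCs, with 1.57-fold in the in vitro iSEPs (adjusted p = 0.000822), 1.40-fold in the in vivo iSEPs (0.00563) and 1.39-fold in keratinocytes (0.00548). In ADSCs Insig1 exceeded Insig2 in all 3 libraries, and in each of the 9 serum-free libraries Insig2 exceeded Insig1. Stard4, a cytosolic sterol carrier, was not called in any comparison and had means from 8.57 ± 1.11 in ADSCs to 12.1 ± 1.02 in the in vitro iSEPs.

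Of these calls, those of Scap, of Srebf2 in the in vitro iSEPs, of Insig2 in both iSEP groups, and of Srebf1 and Insig1 in keratinocytes held under every alternative. Insig1 lost its call without ADSC mouse 2 in the in vitro iSEPs (adjusted p = 0.0942) and in vivo iSEPs (0.0624), and in the in vitro iSEPs also without in vitro mouse 1 (0.0712). That ADSC library had the highest Insig1 value and was the highest of its group for 15 of the 18 sterol enzymes (all genes 26.8%). Its 6 immune cell markers summed to 56.6 FPKM against 6.30 and 9.66 in the other ADSC libraries. The part of such cells in Insig1 was not tested. Srebf2 in keratinocytes lost it without ADSC mouse 2 or 3 or keratinocyte mouse 1 or 3 (adjusted p 0.0509 to 0.0653). Srebf1 lost its in vivo call without any 1 ADSC library or in vivo mouse 1 (adjusted p 0.0699 to 0.142) and with the mouse as a block (0.059). Its difference between in vitro iSEPs and keratinocytes lost the call without any 1 of the 6 libraries (adjusted p 0.0815 to 0.153) and with the block (0.0607). Insig2 in keratinocytes lost it when libraries were scaled to a common median (adjusted p = 0.0703), as did Srebf2 there (0.0865) and Srebf1 in the in vivo iSEPs (0.109).

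In the fatty acid arm, the enzymes of chain building, Acaca and Fasn, were called higher in the in vitro iSEPs and keratinocytes. Acaca, the acetyl-CoA carboxylase that makes malonyl-CoA, had 2.84, 3.48 and 3.51 FPKM in the ADSC libraries, 4.39, 4.27 and 5.86 in the in vitro iSEP libraries, 5.13, 4.21 and 3.16 in those of in vivo iSEPs and 4.42, 4.99 and 5.64 in those of keratinocytes. Its rise over ADSCs was small, 1.48-fold in the in vitro iSEPs (log2 difference 0.44 ± 0.17, adjusted p = 0.0486) and 1.53-fold in keratinocytes (log2 difference 0.49 ± 0.17, adjusted p = 0.0319). Neither call held under median scaling (adjusted p = 0.184 and 0.161) or with the mouse as a block (adjusted p = 0.074 and 0.0522). The first was lost without any 1 of its 6 libraries (adjusted p 0.0526 to 0.174), and the second without any 1 ADSC library or keratinocyte mouse 2 or 3 (0.0517 to 0.113). Fasn, the fatty acid synthase, was at 20.9, 20.7 and 31.2 FPKM in the ADSC libraries, 31.1, 52.4 and 62.4 in the in vitro iSEP libraries, 37.1, 30.5 and 37.2 in those of in vivo iSEPs and 39.9, 41.6 and 47.2 in those of keratinocytes. ADSC mouse 3 stood above the other two ADSC libraries and overlapped the lowest in vitro and in vivo iSEP libraries. Fasn was 2.005-fold higher in the in vitro iSEPs (log2 difference 0.94 ± 0.23, adjusted p = 0.00567) and 1.77-fold in keratinocytes (log2 difference 0.82 ± 0.23, adjusted p = 0.0125), the latter lost without ADSC mouse 2 (adjusted p = 0.0505). In in vivo iSEPs its adjusted p was 0.0865, and 0.046 with the mouse as a block. Me1, the malic enzyme that supplies NADPH, went down instead, at 17.7, 19.4 and 22.9 FPKM in the ADSC libraries, 6.80, 10.9 and 9.97 in the in vitro iSEP libraries, 8.69, 10.4 and 22.4 in those of in vivo iSEPs and 10.6, 9.96 and 9.82 in those of keratinocytes. It was called lower in the in vitro iSEPs (log2 difference -1.05 ± 0.28, adjusted p = 0.00886) and keratinocytes (log2 difference -0.91 ± 0.28, adjusted p = 0.0189), and the in vivo library of mouse 3 was at the ADSC level. In in vivo iSEPs the difference was -0.61 (adjusted p = 0.101), and without that library -0.99 and called lower (adjusted p = 0.00114), as it was with array weights (0.00763). The keratinocyte call was lost without ADSC mouse 3 or keratinocyte mouse 2 or 3 (adjusted p 0.0501 to 0.0664).

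Desaturases were lower than in ADSCs where they were called. Scd1, which puts the first double bond into saturated chains, stood at 67.9, 73.1 and 63.3 FPKM in the ADSC libraries, 16.4, 26.9 and 26.6 in the in vitro iSEP libraries, 36.8, 27.3 and 22.1 in those of in vivo iSEPs and 32.2, 47.7 and 51.3 in those of keratinocytes. No serum-free library reached the ADSC level. The ADSC mean was 2.92 times that of in vitro iSEPs (log2 difference -1.54 ± 0.24, adjusted p = 0.000239), 2.37 times that of in vivo iSEPs (log2 difference -1.24 ± 0.24, adjusted p = 0.0012) and 1.56 times that of keratinocytes (log2 difference -0.65 ± 0.24, adjusted p = 0.037). In vitro iSEPs were also below keratinocytes (log2 difference -0.89 ± 0.24, adjusted p = 0.037), but not with the mouse as a block (adjusted p = 0.0531) or without in vitro mouse 1 or 3 or keratinocyte mouse 2 or 3 (0.0583 to 0.131). The keratinocyte call against ADSCs was lost without any 1 ADSC library or keratinocyte mouse 1 or 2 (adjusted p 0.0523 to 0.145). Its neighbour Scd2, a close copy on chromosome 19 that may share reads with it, was more abundant than Scd1 in all 12 libraries and was called in no comparison, with means from 221 ± 21.1 in ADSCs to 321 ± 67.3 in the in vivo iSEPs. Fads1, the delta-5 desaturase of polyunsaturated chains, had 42.5, 55.8 and 51.4 FPKM in the ADSC libraries, 10.952, 26.5 and 16.7 in the in vitro iSEP libraries, 21.6, 19.0 and 17.1 in those of in vivo iSEPs and 22.1, 21.0 and 21.4 in those of keratinocytes. All 9 serum-free libraries lay below the ADSC libraries. The ADSC mean was 2.77, 2.59 and 2.32 times that of the iSEPs (in vitro, in vivo) and keratinocytes (adjusted p = 0.00033, 0.000852 and 0.00178), and these calls held under every alternative. Fads2 and Fads3, which lie beside Fads1 on chromosome 19, were not called: Fads2 had means from 72.9 ± 23.0 to 88.5 ± 10.46 FPKM and Fads3 from 44.7 ± 21.8 to 71.8 ± 22.1. With the mouse as a block, Fads3 was called lower in the in vitro iSEPs than in ADSCs (adjusted p = 0.0244, against 0.0827 without).

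The elongases had unlike patterns. Elovl4, which extends chains to the very long lengths found in epidermal ceramides, was at 1.12, 1.77 and 1.75 FPKM in the ADSC libraries, 55.3, 15.8 and 54.1 in the in vitro iSEP libraries, 16.5, 7.11 and 12.2 in those of in vivo iSEPs and 27.3, 49.2 and 37.4 in those of keratinocytes. ADSCs were near the filter limit and every other library was higher. The fold over ADSCs was 27.0 in the in vitro iSEPs (log2 difference 3.89 ± 0.44, adjusted p = 2.31e-05), 7.71 in the in vivo iSEPs (log2 difference 2.29 ± 0.44, adjusted p = 0.00129) and 24.6 in keratinocytes (log2 difference 3.91 ± 0.44, adjusted p = 2.18e-05). In vivo iSEPs lay below all keratinocyte libraries (log2 difference -1.62 ± 0.44, adjusted p = 0.0487), a call lost with the mouse as a block (adjusted p = 0.062) and without in vivo mouse 2 or 3 or any 1 keratinocyte library (0.0555 to 0.202). The suprabasal keratinocyte markers, which mark differentiating cells, summed to 1321, 249.2 and 748 FPKM in the in vitro iSEP libraries of mice 1, 2 and 3, where Elovl4 had 55.3, 15.8 and 54.1. In keratinocytes they summed to 721, 405 and 366 with Elovl4 at 27.3, 49.2 and 37.4, and in the in vivo iSEPs to 275, 169 and 785 with Elovl4 at 16.5, 7.11 and 12.2, so the orders of the libraries differed there. Most of each of these sums came from Sprr1a and Sprr1b. The part of the suprabasal markers in the Elovl4 levels was not tested. Elovl1, the broadly expressed elongase, gave 52.4, 61.0 and 65.1 FPKM in the ADSC libraries, 59.8, 48.4 and 49.0 in the in vitro iSEP libraries, 46.8, 44.6 and 45.4 in those of in vivo iSEPs and 45.3, 48.5 and 52.2 in those of keratinocytes. It was called lower in the in vivo iSEPs (log2 difference -0.37 ± 0.12, adjusted p = 0.0206), which was lost without ADSC mouse 2 or 3 or in vivo mouse 2 (adjusted p 0.0593 to 0.076). Elovl6, which extends palmitate, was called in no comparison, with means from 8.13 ± 1.47 in ADSCs to 11.3 ± 4.05 in the in vitro iSEPs. Acly, which makes cytosolic acetyl-CoA for both arms, was likewise not called, from 83.2 ± 3.43 in ADSCs to 123 ± 41.0 in the in vitro iSEPs.

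**Figure D3:**
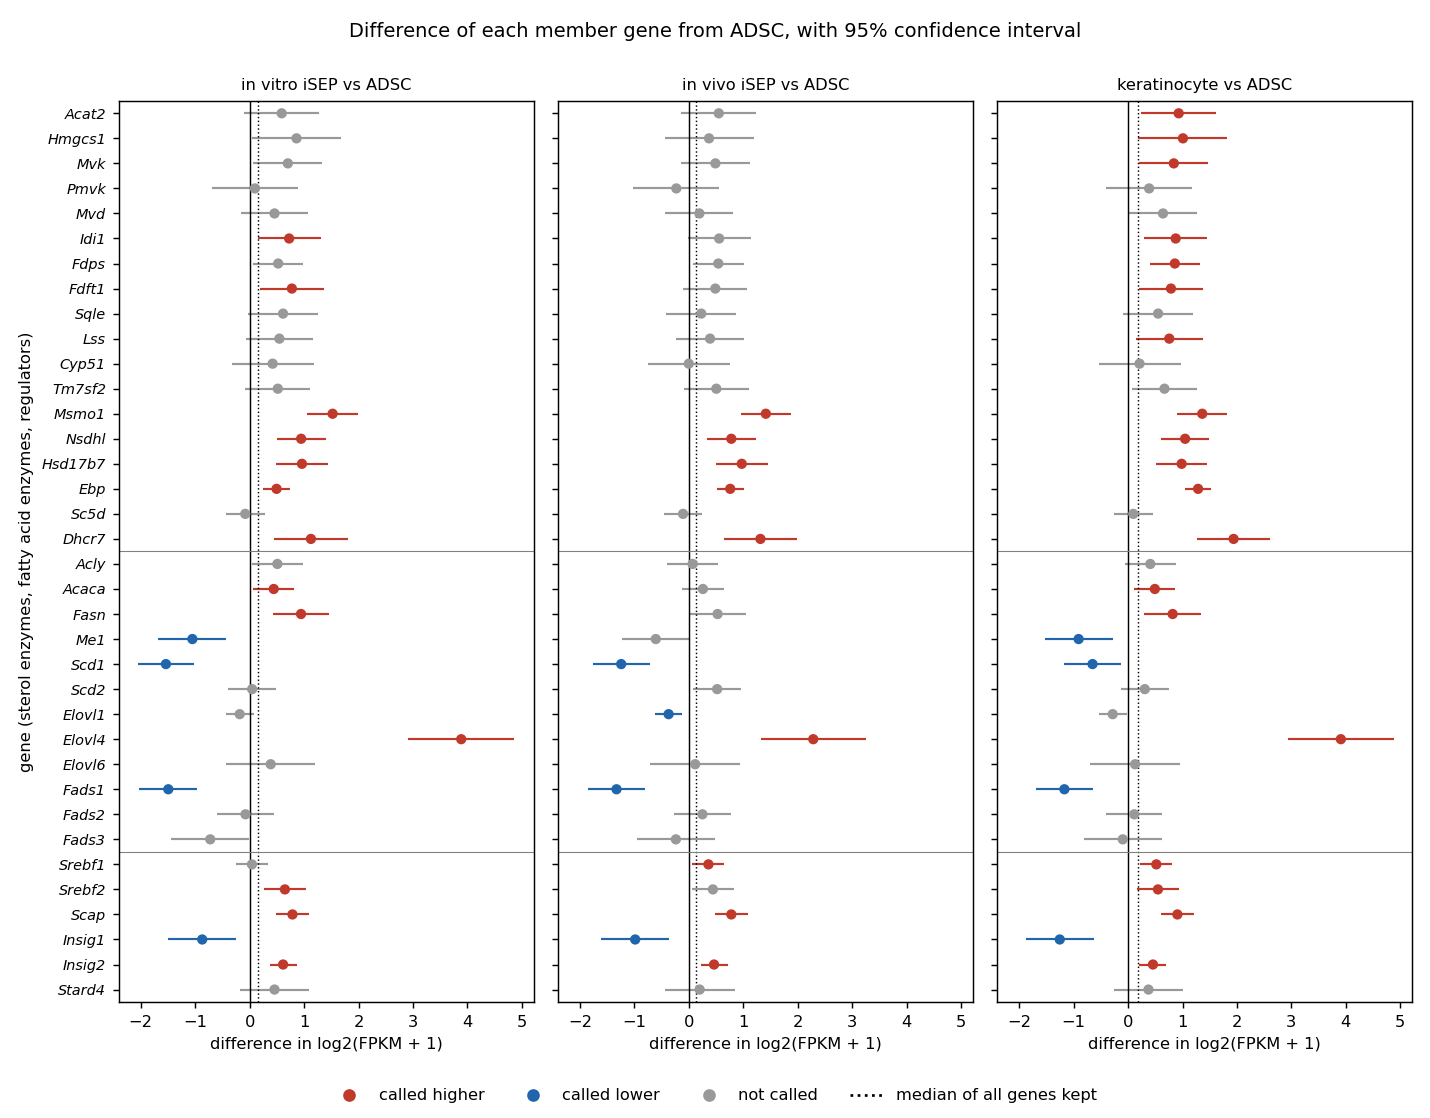
Points give the difference in log2(FPKM + 1) of each member between a group and ADSCs, with lines for the 95% confidence interval from limma, in red where called higher, blue where called lower and grey where not called; the dotted line is the median of all genes kept (0.15, 0.14 and 0.18). The 18 sterol enzymes at the top hold no blue point, and Elovl4 stands apart at 3.89, 2.29 and 3.91.

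Without a difference in serum, few members were called. Between in vitro iSEPs and keratinocytes, Ebp, Scd1 and Srebf1 were lower in the in vitro iSEPs and 0 members were higher, 3 of 36 where 11.3% of all genes were called (5.22% higher and 6.12% lower). Between in vivo iSEPs and keratinocytes, Ebp and Elovl4 were lower in the in vivo iSEPs, 2 of 36 where 7.48% of all genes were called (3.41% higher and 4.08% lower). Between in vivo and in vitro iSEPs limma called 0 of 36, where 1.63% of all genes were called (0.679% higher and 0.946% lower). Libraries of the members did not overlap for 1 member above and 6 below between in vitro iSEPs and keratinocytes (40.8% of all genes, 17.8% above and 23.0% below) and for 0 above and 4 below between in vivo iSEPs and keratinocytes (27.8% of all genes, 11.6% above and 16.2% below). Between the iSEP groups such members were Ebp and Srebf1 higher in the in vivo iSEPs and Elovl1 lower (all genes 15.0%, 6.35% above and 8.64% below). At an unadjusted p below 0.05, 4 members differed between the iSEP groups (Elovl4, Ebp, Srebf1 and Scd2) and 1845 of all genes did. Elovl4 had the largest of these differences (log2 difference -1.60 ± 0.44, adjusted p = 0.107), which was called without in vitro mouse 2 (0.0103). With so few calls, the 3 serum-free groups are not shown to be alike: for Hmgcs1, the 95% interval of the difference of in vivo from in vitro iSEPs ran from -1.31 to 0.33.

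The in vivo iSEP cultures differed among themselves in the sterol arm. The median SD of the 18 sterol enzymes on the log2 scale was 0.64 in the in vivo iSEPs, against 0.16 in ADSCs, 0.25 in the in vitro iSEPs and 0.10 in keratinocytes, and against 0.25 over all genes in the in vivo iSEPs. Relative to the ADSC mean, the median of the 18 enzymes was 1.08 in the library of mouse 1, 0.34 in that of mouse 2 and -0.03 in that of mouse 3. The library of mouse 1 was the highest of its group for 16 of the 18 enzymes and all 6 regulators, and that of mouse 3 the lowest for 13 of 18. Over all genes these shares were 46.1% and 41.9%. Hsd17b7 and Dhcr7 were the 2 exceptions in which mouse 3 was highest. The other groups also had a leading library. ADSC mouse 2 was highest for 15 of the 18 (all genes 26.8%) and keratinocyte mouse 3 for 14 (35.4%). In vitro mouse 3 was highest for 11 (31.9%). Proliferation markers had the same order as the sterol medians in the in vivo iSEPs. Their 8 genes summed to 408, 131 and 37.0 FPKM in the libraries of mice 1, 2 and 3. The keratinocyte markers summed to 21120, 18340 and 10820, mostly from Krt5 (9804, 9252 and 3410) and Krt14 (9607, 6968 and 5621). The other keratinocyte markers did not have this order, such as Cdh1 (82.6, 151 and 160), Itgb4 (159, 164 and 204) and Trp63 (59.3, 156 and 80.7). Stromal markers summed to 29.9, 52.7 and 185 and suprabasal markers to 275, 169 and 785, so that mouse 3 was highest in both. In in vitro iSEPs the order was different: the proliferation sums were 129, 84.3 and 107 where the sterol medians were 0.48, 0.60 and 0.84. The part of any of these in the sterol levels was not tested.

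**Figure D4:**
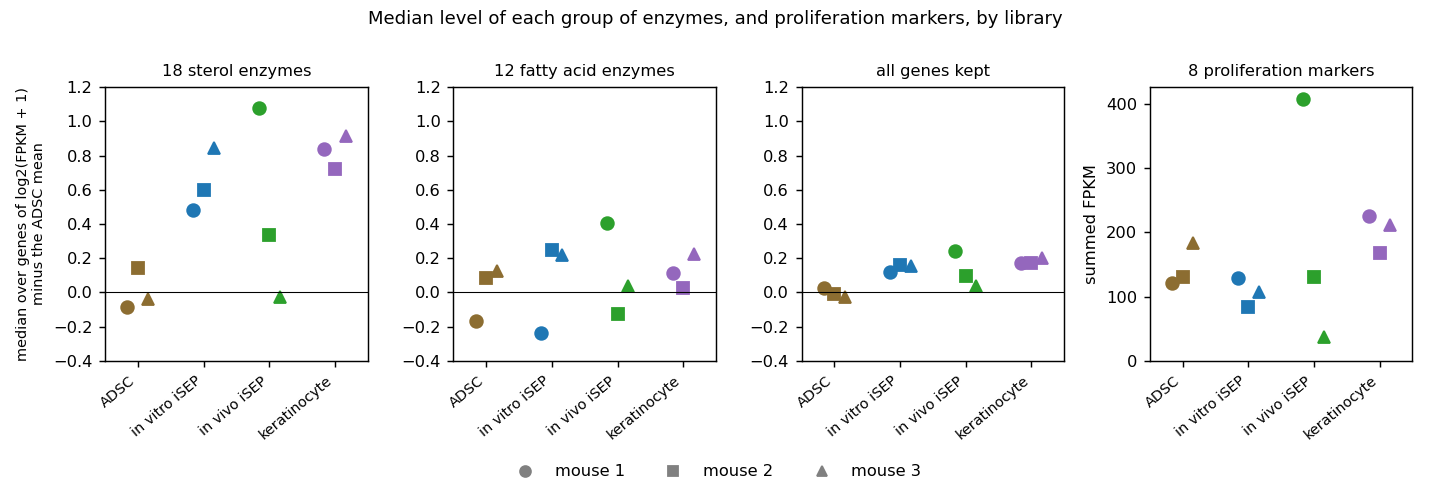
The first 3 panels give, for each library, the median over genes of log2(FPKM + 1) minus the ADSC mean, for the 18 sterol enzymes, the 12 fatty acid enzymes and all genes kept; the last gives the summed FPKM of 8 proliferation markers. In vivo iSEP libraries span 1.08 to -0.03 in the sterol panel and 408 to 37.0 in the marker panel, and keratinocytes stay between 0.72 and 0.92 in the sterol panel.

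The sterol counts of the in vivo group moved with single libraries. Without mouse 3, 12 of 18 sterol enzymes were called higher than in ADSCs in place of 5, the 7 added being Acat2, Hmgcs1, Mvk, Idi1, Fdps, Fdft1 and Lss (adjusted p 0.00263 to 0.0326). With all libraries 27.6% of all genes were called higher in this comparison, and the share without mouse 3 is not given here. Without mouse 1, 6 of 18 were called lower than in keratinocytes in place of 1, among them Mvk (log2 difference -0.77, adjusted p = 0.011) and Pmvk (log2 difference -1.07, adjusted p = 0.0261). The calls over all 12364 genes, in either direction, also rose in that fit, to 1676 in place of 925.

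Other genes of lipid metabolism were read from lists drawn up for the neighbouring steps. Their counts stand beside the shares of all genes called higher (32.1% in the in vitro iSEPs, 27.6% in the in vivo iSEPs, 32.8% in keratinocytes) and lower (21.7%, 20.0% and 20.7%), and shares below are in that order of groups. Of 15 genes of SREBP processing and partners, 8 were called higher and 2 lower in the in vitro iSEPs than in ADSCs, 7 and 2 in the in vivo iSEPs, and 6 and 1 in keratinocytes. As shares of those tested, the higher calls were 53.3%, 46.7% and 40%, and the shares lower 13.3%, 13.3% and 6.67%. Erlin2, an endoplasmic reticulum protein that binds the Scap-Insig complex, had 15.3 ± 2.501 FPKM in ADSCs and 45.0 ± 9.07, 43.7 ± 7.50 and 44.6 ± 0.904 in the iSEPs (in vitro, in vivo) and keratinocytes (adjusted p = 1.96e-05, 2.63e-05 and 1.89e-05). Mbtps2, the protease that makes the final cut in SREBPs, was 2.12-, 1.71- and 1.93-fold higher (adjusted p = 5.25e-05, 0.000774 and 0.000148), and Rnf145, a sterol-responsive ubiquitin ligase, 1.94-, 2.18- and 2.32-fold (adjusted p = 2.58e-05, 7.46e-06 and 3.52e-06). Of 23 genes of sterol uptake, transport, esterification and efflux, 4 were called higher and 7 lower in the in vitro iSEPs, 7 and 8 in the in vivo iSEPs, and 5 and 8 in keratinocytes. As shares of those tested, the higher calls were 17.4%, 30.4% and 21.7%, and the shares lower 30.4%, 34.8% and 34.8%. Lrp1, a receptor that takes up lipoproteins among other ligands, had 182 ± 22.8 FPKM in ADSCs and 26.1 ± 7.96, 22.5 ± 7.77 and 9.92 ± 3.67 in the other groups (adjusted p = 1.96e-05, 1.2e-05 and 8.83e-07). Cyp27a1, a sterol hydroxylase, went from 0.249 ± 0.149 to 14.2 ± 4.57, 2.84 ± 1.40 and 6.17 ± 1.30, and in vivo iSEPs were below in vitro iSEPs (log2 difference -2.02 ± 0.30, adjusted p = 0.0122). Stard5, a sterol carrier, was 7.95-, 4.98- and 9.42-fold above ADSCs (adjusted p = 0.000133, 0.00102 and 8.17e-05).

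For the branches of mevalonate that do not lead to sterols, of 13 genes 4 were called higher and 1 lower in the in vitro iSEPs, 2 and 1 in the in vivo iSEPs, and 4 and 1 in keratinocytes. Of those tested, the shares higher were 30.8%, 15.4% and 30.8%, and the shares lower 7.69%, 7.69% and 7.69%. Coq2, of coenzyme Q synthesis, was called higher in each (1.93-, 1.64- and 1.85-fold, adjusted p = 0.00151, 0.0139 and 0.00255). The prenyltransferase genes Rabggta (1.85-fold in the in vitro iSEPs, adjusted p = 0.00266) and Fntb (1.54-fold in keratinocytes, adjusted p = 0.00335) were also called. Of 27 genes of fatty acid supply and elongation 19 passed the filter, with 9 called higher and 3 lower in the in vitro iSEPs, 7 and 2 in the in vivo iSEPs, and 9 and 2 in keratinocytes. Of those tested, the shares higher were 47.4%, 36.8% and 47.4%, and the shares lower 15.8%, 10.5% and 10.5%. Elovl7, another elongase, had 0.0810 ± 0.0277 FPKM in ADSCs and 10.3 ± 1.37, 8.59 ± 1.47 and 15.7 ± 2.38 in the other groups (adjusted p = 1.91e-08, 3.27e-08 and 5.21e-09). Acsl3, which activates fatty acids, was higher in vivo than in vitro among the iSEPs (68.7 ± 2.53 against 38.2 ± 2.89, log2 difference 0.83 ± 0.15, adjusted p = 0.0261). Mid1ip1, a regulator of acetyl-CoA carboxylase, was highest in keratinocytes at 96.9 ± 10.3 against 21.6 ± 3.47 in ADSCs (adjusted p = 0.000387).

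Genes that use or store the products were read in the same way. Of 19 genes of epidermal ceramide and barrier lipid 18 passed the filter, and 12 were called higher and 4 lower in the in vitro iSEPs, 9 and 4 in the in vivo iSEPs, and 11 and 4 in keratinocytes. Of those tested, the shares higher were 66.7%, 50% and 61.1%, and the shares lower 22.2%, 22.2% and 22.2%. Cers3, the ceramide synthase that uses very long chains of the kind Elovl4 makes, had 0.0970 ± 0.0257 FPKM in ADSCs and 39.6 ± 13.7, 23.4 ± 2.84 and 22.1 ± 2.65 in the other groups (adjusted p = 1.53e-08, 4.15e-08 and 4.33e-08). Abca12, the lipid transporter of lamellar granules, had at most 0.016 FPKM in ADSCs, where 1 library was listed at 0, and 10.7 ± 5.25, 4.42 ± 1.13 and 7.48 ± 1.39 elsewhere. Ugcg, which makes glucosylceramide, was lower, at 13.2 ± 5.42, 11.68 ± 1.53 and 12.7 ± 1.83 against 92.2 ± 6.29 in ADSCs (adjusted p = 1.21e-06, 9.53e-07 and 1.18e-06). Of 16 genes of lipid storage and lipolysis 11 passed the filter, with 6 called higher and 2 lower in the in vitro iSEPs, 4 and 2 in the in vivo iSEPs, and 4 and 2 in keratinocytes. As shares of those tested, the higher calls were 54.5%, 36.4% and 36.4%, and the shares lower 18.2%, 18.2% and 18.2%. Mgll, a monoacylglycerol lipase, stood at 6.28 ± 3.94, 37.6 ± 14.4 and 0.418 ± 0.414 FPKM in the in vitro iSEPs, in vivo iSEPs and skin keratinocytes, and in vivo iSEPs exceeded in vitro iSEPs (log2 difference 2.52 ± 0.41, adjusted p = 0.0154) and keratinocytes (log2 difference 4.74 ± 0.41, adjusted p = 0.000183). Plin2, which coats lipid droplets, rose from 69.7 ± 11.6 in ADSCs to 206 ± 32.2 in keratinocytes (adjusted p = 0.00104). Lpl (lipoprotein lipase) was lower than in ADSCs both for in vitro iSEPs (adjusted p = 0.0357) and for in vivo iSEPs (0.0207). Of 19 genes of fatty acid oxidation 18 passed the filter, with 8 called higher and 1 lower in the in vitro iSEPs, 5 and 3 in the in vivo iSEPs, and 3 and 4 in keratinocytes. Of those tested, the shares higher were 44.4%, 27.8% and 16.7%, and the shares lower 5.56%, 16.7% and 22.2%. Acadl, an acyl-CoA dehydrogenase, was 2.72-fold higher in the in vitro iSEPs (adjusted p = 0.00105), Decr1, a dienoyl-CoA reductase, was lower there (log2 difference -1.75 ± 0.37, adjusted p = 0.00218), and Cpt1c was lower in keratinocytes (log2 difference -1.11 ± 0.26, adjusted p = 0.004).

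Sebaceous gland cells, which make lipid in bulk, were looked for with 8 markers. Their sum was 3.17 to 3.597 FPKM in ADSCs, 5.67 to 24.0 in the in vitro iSEPs, 3.10 to 11.1 in the in vivo iSEPs and 12.3 to 27.6 in keratinocytes. Most of it came from Dgat2, Krt79 and Cidea, while Mc5r, Elovl3, Far2 and Plin5 were at or near 0 in every library. The part of such cells in the levels of the members was not tested.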

How the data were processed

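RNA from 12 cultures (Quick-RNA kit, TruSeq RNA libraries) was sequenced, and the sources used here do not state whether the libraries keep strand. Per the file headers, the authors deposited FPKM per gene from HOMER, counted over exons of mm10 with 1 isoform per gene and the strand option set to +. In GENCODE M21, exons on the other strand overlap those of 9 members. Besides Fdft1 and Scap, the largest shares of exon bases were 16.0% for Hmgcs1, 10.7% for Idi1 and 8.16% for Lss. The submitters' processing notes name FastQC 0.11.5, STAR 2.5.1b and HOMER. A deposited column of transcript length (another unit, bases) served to recover the worth of 1 read and thus the depth. Per-sample values in 3 columns of no sample in the labels were not used.

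Genes at 1 FPKM or more in at least 3 libraries were kept, and log2(FPKM + 1) was fitted with limma 3.58.1 (R 4.3.3, trended variance, 1 mean per group, all 12 libraries). A count test was not used because the values are normalized. The 6 comparisons were each adjusted over all genes kept. The method was tested on simulated data with 1 spread per gene for all groups and no link between libraries of the same mouse. That test therefore does not cover unequal spread between groups or shared animals. Members and gene lists were chosen with earlier results of these data known. Members called in at least 1 comparison with a group mean of at least 5 FPKM were described in every library, and up to 3 genes of each other list were named by the size of their differences.

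The labels give 3 animals in all and number each group mouse 1 to 3. Libraries were matched by that number, on the labels alone, for the correlations below and the fit with the mouse as a block. The main fit did not use the mouse number and treated the 12 libraries as independent. Of 18 same-animal pairs of libraries, 6 had deviations from the group means that correlated above 0.1 (r from -0.178 to 0.21, median 0.045, against -0.0135 for other pairs). Alternatives were other filters, pseudocounts, scalings and fits, leaving out each library, and the mouse as a block.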

Additional observations from a re-analysis of the deposited data

How the results depend on the processing

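Of the 58 member calls, none changed direction under any alternative run: filters at 0 and 5 FPKM, a pseudocount of 0.1, scaling to a common median, quantile normalization, the mouse number as a replicate block, array weights (a fit that stopped before its convergence tolerance), fits of the 2 groups or of the 9 serum-free libraries alone, and leaving out each library. Calls held under all of them for 13 of 17 members in in vitro iSEPs against ADSCs, 10 of 13 in in vivo iSEPs and 11 of 23 in keratinocytes, and for 1 of 3 and 0 of 2 members in the comparisons of in vitro and in vivo iSEPs with keratinocytes. Of 216 member differences, 64 that were not called changed sign under some alternative. With 3 cultures a group the precision rests on that number, and low genes such as Idi1 also on their depth. The cause of each change below was not tested.

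For sterol enzymes in in vitro iSEPs against ADSCs, the count was 7, and it was 13 with array weights or the 2 groups alone. The shares of all genes in those fits against ADSCs are not given here. For fatty acid enzymes in in vitro iSEPs against ADSCs, the count was 6, and it was 10 with array weights. For sterol enzymes in keratinocytes against ADSCs, the count was 12, and it was 7 with median scaling or quantile normalization. For all genes in in vitro iSEPs against keratinocytes, the count was 1403, and it was 4323 with array weights. For sterol enzymes in in vitro iSEPs against keratinocytes, the count was 1, and it was 2 with array weights or the 2 groups alone. For fatty acid enzymes in in vitro iSEPs against keratinocytes, the count was 1, and it was 0 with no filter or the replicate block or the 2 groups alone or the 9 serum-free libraries alone. For all genes in in vivo iSEPs against keratinocytes, the count was 925, and it was 2766 with array weights and 424 with the 2 groups alone and 611 with the 9 serum-free libraries alone. For sterol enzymes in in vivo iSEPs against keratinocytes, the count was 1, and it was 2 with array weights and 0 with the 2 groups alone. For fatty acid enzymes in in vivo iSEPs against keratinocytes, the count was 1, and it was 0 with no filter or a pseudocount of 0.1 or median scaling or quantile normalization or the replicate block or the 2 groups alone or the 9 serum-free libraries alone and 2 with array weights. For all genes in in vivo iSEPs against in vitro iSEPs, the count was 201, and it was 128 with the replicate block and 312 with array weights and 1 with the 2 groups alone and 76 with the 9 serum-free libraries alone.

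Leaving out 1 library moved these counts, and the shares of all genes are not given here for such fits against ADSCs. Sterol enzymes called in in vivo iSEPs against ADSCs numbered 5 to 12 (5 with all libraries). Sterol enzymes called in keratinocytes against ADSCs numbered 6 to 9 (12 with all libraries). Fatty acid enzymes called in keratinocytes against ADSCs numbered 3 to 5 (6 with all libraries). All genes called in in vitro iSEPs against keratinocytes numbered 524 to 1180 (1403 with all libraries). Fatty acid enzymes called in in vitro iSEPs against keratinocytes numbered 0 to 1 (1 with all libraries). All genes called in in vivo iSEPs against keratinocytes numbered 358 to 1676 (925 with all libraries). Sterol enzymes called in in vivo iSEPs against keratinocytes numbered 0 to 6 (1 with all libraries). Fatty acid enzymes called in in vivo iSEPs against keratinocytes numbered 0 to 1 (1 with all libraries). All genes called in in vivo iSEPs against in vitro iSEPs numbered 58 to 360 (201 with all libraries). Fatty acid enzymes called in in vivo iSEPs against in vitro iSEPs numbered 0 to 1 (0 with all libraries). Regulators called in in vivo iSEPs against ADSCs numbered 2 to 6 (4 with all libraries; 2 also with the 2 groups alone), and in in vitro iSEPs against keratinocytes 0 in each such fit (1 with all libraries; 0 with no filter, the replicate block or the 9 serum-free libraries alone, 2 with array weights). With median scaling 3 were called in keratinocytes against ADSCs in place of 5.

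With median scaling, log2 differences that had not been called took the other sign in in vitro iSEPs against ADSCs Pmvk -0.065, Scd2 -0.12, Srebf1 -0.12, and in in vivo iSEPs against ADSCs Acly -0.051, Elovl6 -0.003, and in keratinocytes against ADSCs Sc5d -0.096, Elovl6 -0.063, Fads2 -0.077, and in in vitro iSEPs against keratinocytes Fdft1 0.018, Hsd17b7 0.007, Elovl4 0.008, and in in vivo iSEPs against keratinocytes Hsd17b7 0.059, Elovl6 0.059, and in in vivo iSEPs against in vitro iSEPs Acat2 0.002, Tm7sf2 0.029, Sc5d 0.016, Scap 0.034. With quantile normalization, log2 differences that had not been called took the other sign in in vitro iSEPs against ADSCs Pmvk -0.058, Scd2 -0.089, Srebf1 -0.11, and in in vivo iSEPs against ADSCs Acly -0.029, Elovl6 -0.006, and in keratinocytes against ADSCs Elovl6 -0.065, and in in vivo iSEPs against keratinocytes Msmo1 -0.004, Elovl6 0.059, and in in vivo iSEPs against in vitro iSEPs Tm7sf2 0.024, Scap 0.016. With array weights, log2 differences that had not been called took the other sign in in vivo iSEPs against ADSCs Acly -0.073, and in keratinocytes against ADSCs Sc5d -0.13, Fads2 -0.082, and in in vitro iSEPs against keratinocytes Mvk 0.001, Fdft1 0.11, Tm7sf2 0.036, Hsd17b7 0.14, Sc5d 0.055, Fads2 0.009, and in in vivo iSEPs against keratinocytes Elovl6 0.023, Insig2 -0.06, and in in vivo iSEPs against in vitro iSEPs Hsd17b7 -0.27, Dhcr7 -0.33.

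In in vitro iSEPs against ADSCs, differences not called with all libraries ran, with 1 left out, from -0.17 to 0.062 for Sc5d, -0.078 to 0.26 for Scd2, -0.27 to 0.21 for Fads2. In in vivo iSEPs against ADSCs, differences not called with all libraries ran, with 1 left out, from -0.052 to 0.87 for Hmgcs1, -0.68 to 0.29 for Pmvk, -0.15 to 0.52 for Mvd, -0.12 to 0.55 for Sqle, -0.48 to 0.42 for Cyp51, -0.19 to 0.012 for Sc5d, -0.09 to 0.21 for Acly, -0.36 to 0.51 for Elovl6, -0.15 to 0.60 for Stard4. In keratinocytes against ADSCs, differences not called with all libraries ran, with 1 left out, from -0.013 to 0.19 for Sc5d, -0.079 to 0.23 for Fads2, -0.36 to 0.10 for Fads3. In in vitro iSEPs against keratinocytes, differences not called with all libraries ran, with 1 left out, from -0.39 to 0.031 for Hmgcs1, -0.21 to 0.13 for Fdft1, -0.14 to 0.26 for Sqle, -0.27 to 0.001 for Tm7sf2, -0.23 to 0.021 for Nsdhl, -0.18 to 0.22 for Hsd17b7, -0.15 to 0.31 for Acly, -0.17 to 0.025 for Acaca, -0.08 to 0.41 for Fasn, -0.27 to 0.041 for Me1, -0.32 to 0.55 for Elovl4, -0.37 to 0.099 for Fads2. In in vivo iSEPs against keratinocytes, differences not called with all libraries ran, with 1 left out, from -0.69 to 0.21 for Cyp51, -0.37 to 0.011 for Tm7sf2, -0.16 to 0.27 for Msmo1, -0.21 to 0.15 for Hsd17b7, -0.084 to 0.55 for Me1, -0.49 to 0.38 for Elovl6, -0.31 to 0.014 for Fads3, -0.29 to 0.12 for Srebf2, -0.062 to 0.58 for Insig1, -0.06 to 0.055 for Insig2, -0.53 to 0.23 for Stard4. In in vivo iSEPs against in vitro iSEPs, differences not called with all libraries ran, with 1 left out, from -0.44 to 0.27 for Acat2, -0.91 to 0.005 for Hmgcs1, -0.63 to 0.079 for Mvk, -0.78 to 0.20 for Pmvk, -0.61 to 0.065 for Mvd, -0.50 to 0.082 for Idi1, -0.22 to 0.27 for Fdps, -0.54 to 0.17 for Lss, -0.90 to 0 for Cyp51, -0.22 to 0.16 for Tm7sf2, -0.32 to 0.11 for Msmo1, -0.39 to 0.063 for Nsdhl, -0.23 to 0.18 for Hsd17b7, -0.17 to 0.092 for Sc5d, -0.028 to 0.62 for Dhcr7, -0.75 to 0.12 for Elovl6, -0.13 to 0.47 for Fads1, -0.39 to 0.018 for Srebf2, -0.10 to 0.10 for Scap, -0.45 to 0.20 for Insig1, -0.61 to 0.14 for Stard4.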
